A study of Mus musculus with 20 samples.

Results

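Ptaquiloside was examined for a shared effect on splenic natural killer (NK) cells by setting every array from mice given it against every array from mice not given it, with or without selenium. Of the 20 arrays in the series 19 entered, 9 from mice given ptaquiloside and 10 from mice not given it. Members were taken by their treatment labels, and the array of ptaquiloside mouse 4 was left out because it was dim. The ptaquiloside side held 4 arrays of mice given ptaquiloside at 5.3 mg/kg and 5 arrays of mice given ptaquiloside at 5.3 mg/kg together with selenium at 1.3 mg/kg. The other side held 5 arrays of mice given selenium alone at 1.3 mg/kg and 5 arrays of control mice given water. All were male C57BL/6 mice dosed once a day by gavage for 14 days, with 5 mice per group and 1 mouse per array. The NK cells were left untouched while other spleen cells were retained on magnetic columns, and their Cy3-labelled RNA was hybridised to 1-colour Agilent whole-genome mouse arrays. The labels give neither the age of the mice nor the purity of the isolates.

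Ptaquiloside is a glucoside of bracken fern, known as a carcinogen, that can alkylate DNA once it has lost its sugar. NK cells are innate lymphocytes that kill infected or transformed cells with granules of perforin and granzymes. Metallothioneins are small cysteine-rich proteins that bind zinc and other metals, and zinc switches their genes on through the factor MTF1, which binds metal response elements in their promoters. The design text names metallothionein protein as the readout of a further experiment on cells treated in vitro, which is not analysed here.

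Values are log2 processed signals minus the array's own 75th percentile, so that a spot at this percentile stands at 0 and 1 unit is a factor of 2. Levels of different genes are not compared, because probes differ in how they bind. The 75th percentile lay between 45.5 and 133 scanner units on the 9 ptaquiloside arrays and between 75.3 and 128 on the 10 others. On the ptaquiloside arrays 53.8% to 58.2% of spots were well above background, and on the others 51.7% to 60.8%. Each of the 5 slides carried the mice of 1 number, and each group kept its own position on the slide, so treatment and position cannot be told apart. All 10 NK cell markers examined were well above background on all 19 arrays. So were 5 of 5 T cell markers, 5 of 5 neutrophil markers, 5 of 5 macrophage and monocyte markers and 4 of 5 B cell markers. In such bulk samples, fewer cells of a type and less RNA per cell cannot be told apart.

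The promoters of Mt1 and Mt2 are shown because the study followed metallothionein and because these neighbouring genes varied together over the arrays. The sequences are RefSeq's on GRCm38.p6, from 250 bases before to 50 bases after the annotated gene start, both on the plus strand, Mt1 at chr8:94178839-94179138 and Mt2 at chr8:94172368-94172667. Capitals mark the core letters of the metal response element, searched as TGCACNC and TGCGCNC on both strands, where N is any base.
Mt1: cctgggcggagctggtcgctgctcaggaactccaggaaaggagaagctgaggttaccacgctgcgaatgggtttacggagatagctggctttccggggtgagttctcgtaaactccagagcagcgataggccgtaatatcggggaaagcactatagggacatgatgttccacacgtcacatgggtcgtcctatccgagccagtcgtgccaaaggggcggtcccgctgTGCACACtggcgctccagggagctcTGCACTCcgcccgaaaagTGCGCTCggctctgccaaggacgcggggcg
Mt2: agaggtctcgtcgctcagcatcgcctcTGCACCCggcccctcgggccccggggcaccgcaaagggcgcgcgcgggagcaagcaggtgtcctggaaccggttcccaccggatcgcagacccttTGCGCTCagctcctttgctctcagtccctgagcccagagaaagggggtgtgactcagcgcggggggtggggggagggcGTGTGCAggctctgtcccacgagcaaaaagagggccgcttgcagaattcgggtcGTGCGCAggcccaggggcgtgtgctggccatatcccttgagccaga
The Mt1 window held 3 such cores and the Mt2 window 4. Of 32841 promoter windows of 300 bases, 25.7% held at least 1 core, 1.97% held 3 or more and 0.518% held 4 or more. The annotated start need not be the start used in these cells, and a match describes the letters only.

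Mt1 and Mt2, the broadly expressed metallothionein genes, had overlapping ranges with and without ptaquiloside. Each is given by its brightest probe, as all genes are. Mt1 was at 5.35, 3.92, 5.12 and 4.58 in ptaquiloside mice 1, 2, 3 and 5, against 5.67, 3.98, 2.59, 2.64 and 3.69 in control mice 1 to 5. With selenium, Mt1 was at 6.13, 3.51, 3.03, 2.67 and 3.94 in mice 1 to 5 given both compounds, against 5.60, 4.17, 2.99, 3.43 and 4.17 in selenium mice 1 to 5. The ranges overlapped in both settings, and mouse 1 had the highest Mt1 value in each of the 4 groups. Mt2 was at 7.44, 5.71, 6.11 and 5.25 in ptaquiloside mice, against 7.21, 5.97, 4.11, 3.22 and 4.49 in control mice. With selenium, Mt2 was at 7.80, 4.94, 4.37, 3.80 and 5.18 in mice given both compounds, against 7.19, 6.04, 4.79, 5.02 and 4.91 in selenium mice. Mouse 1, whose arrays share slide 1, was again highest in each group, and the ranges overlapped. Mt1 has another, dimmer probe, matched to a cDNA of the gene. This probe was at 2.69, 1.76, 2.26 and 2.93 in ptaquiloside mice, against 1.86, 1.23, 1.24, 1.32 and 2.11 in control mice. With selenium it was at 2.78, 1.57, 1.19, 1.26 and 2.55 in mice given both compounds, against 1.82, 1.35, 1.18, 1.34 and 2.85 in selenium mice. Here each of the 4 ptaquiloside arrays stood above the control of its own slide, slides 4 and 5 with selenium ran the other way, and the ranges overlapped.

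**Figure D1:**
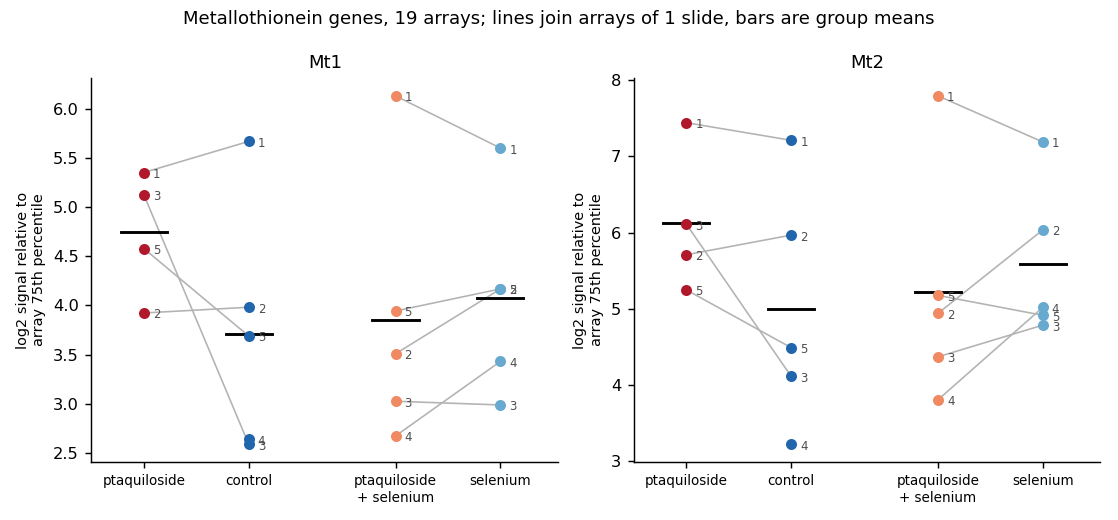
Scaled log2 signal (y axis, relative to each array's 75th percentile) of Mt1 and Mt2 on the 19 arrays by group, with mouse numbers beside the points, lines joining arrays of 1 slide and bars for group means. The line of slide 3 falls steeply from ptaquiloside to control in both panels, and the groups overlap.

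Over the 9 slide pairs, each a ptaquiloside array and the array of the same slide and selenium status without ptaquiloside, the Mt1 difference averaged 0.22 with an SD of 1.01, and 4 of 9 pairs were higher with ptaquiloside (exact two-sided permutation test by sign changes, p = 0.648). For Mt2 the mean was 0.10 with an SD of 0.99, and 5 of 9 pairs were higher (exact two-sided permutation test, p = 0.781). The smallest p that 9 pairs allow is 0.0039. Across these pairs the differences of both genes ran together with a Pearson r of 0.916, a description only, since both were measured in the same RNA. In the limma fit over all genes the ptaquiloside difference was 0.25 with an SE of 0.27 for Mt1 (95% interval -0.34 to 0.83) and 0.18 with an SE of 0.28 for Mt2 (95% interval -0.43 to 0.78). In the limma fit over all probes, the dimmer Mt1 probe differed by 0.44 with an SE of 0.15, at 0.75 without selenium and 0.16 with it, with an unadjusted p of 0.0107 and an adjusted p of 1.000. For the probes first described, without selenium the fitted differences were 0.79 for Mt1 and 0.81 for Mt2, and with selenium they were -0.21 and -0.37. The test of the difference between these effects gave an unadjusted p of 0.0662 for Mt1 and 0.0300 for Mt2. Both adjusted p-values were 0.972. Without ptaquiloside mouse 3, whose Mt1 stood 2.53 above that of its slide's control, the fitted differences were -0.026 for Mt1 and -0.043 for Mt2. Mt3, known from the brain, differed by 0.10 with an SE of 0.13, and Mt4, known from squamous epithelium, by 0.13 with an SE of 0.17 (-0.035 after the normexp background correction). The 4 metallothionein genes had a median of 0.16, at 0.57 without selenium and -0.13 with it. Leaving out single arrays gave medians of 0.029 to 0.26, lowest without ptaquiloside mouse 3 and highest without selenium mouse 4.

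No gene was called for ptaquiloside by limma at an adjusted p under 0.05, 0% of 17468 genes tested, and the smallest adjusted p was 1.00. The unadjusted p was under 0.05 in 369 genes, of which 146 (0.836%) were higher and 223 (1.28%) lower with ptaquiloside, where 873 would be expected if no gene differed. The share of these that were higher, 39.6%, was 73.6% after normexp, 55.6% with all 20 arrays, 33.3% after quantile normalization and 27.7% with median scaling. With single arrays left out it ran from 29.6% without mouse 5 given both compounds to 60% without mouse 4 given both. Differences lay above 0 in 53.1% of genes and below 0 in 46.9%. The median absolute difference was 0.090 and its 95th percentile 0.35, with a median SE of 0.15. The median 95% interval, not adjusted for the number of genes, reached 0.31 to each side, a factor of 1.24. Smaller differences were thus not detectable for a typical gene. With adjustment over all genes larger ones could also go uncalled, as did Mmp9 at -0.73. In 0 genes (0%) did the 9 ptaquiloside arrays lie wholly apart from the 10 others.

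Ptaquiloside against control alone gave 0 calls by limma, with 413 genes (2.36%) at an unadjusted p under 0.05. Ptaquiloside with selenium against selenium gave 0 calls with 640 genes (3.66%). The test of the difference between these effects gave 0 calls with 727 genes (4.16%), and its smallest adjusted p was 0.478. With array 4 of the ptaquiloside and selenium group left out, this test called 1 gene, the transcript AK036773, at 2.44 with an SE of 0.28 and an adjusted p of 0.0174 by limma. On all 19 arrays its value was 2.25 and its adjusted p 0.478. The ptaquiloside effects without and with selenium had the same sign in 7669 genes, 43.9% of those tested. The average over both settings thus joins many estimates of opposite sign. Such signs alone do not show opposite effects, as the test of the difference gave 0 calls.

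Ranked by p were genes with a symbol, 1 sign without and with selenium, and signal well above background on at least 10 of 19 arrays. Among the ranked genes lower with ptaquiloside, the smallest unadjusted p belonged to Mmp9 (probe at chr2:164780303-164780362, mm9). It encodes the gelatinase matrix metalloproteinase 9, which neutrophils store in granules. Mmp9 was at -1.71, -0.074, -0.96 and -0.34 in ptaquiloside mice 1, 2, 3 and 5, against -0.83, 0.10, 0.15, 0.47 and 0.069 in control mice 1 to 5. With selenium it was at -1.54, -0.81, 0.11, -0.57 and -0.46 in mice 1 to 5 given both compounds, against -0.54, 0.079, 0.059, 0.33 and 0.54 in selenium mice 1 to 5. It was lower in 8 of 9 pairs, the exception being slide 3 with selenium, and the ranges overlapped, with mouse 1 low in the selenium and control groups and mouse 3 high among those given both compounds. The limma difference was -0.73 with an SE of 0.14 (95% interval -1.03 to -0.42), with an unadjusted p of 0.000137 and an adjusted p of 1.00. It was -0.70 without selenium and -0.75 with it, and leaving out single arrays gave -0.82 to -0.65.

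Padi4, the peptidylarginine deiminase that citrullinates histones in neutrophils, ran from 0.82 to 2.69 with a median of 2.04 on the ptaquiloside arrays, against 1.90 to 2.84 with a median of 2.32 on the others. Its difference was -0.55 with an SE of 0.16, and it was lower in 8 of 9 pairs. Fut4, a fucosyltransferase that builds the Lewis x sugar of myeloid cells, ran from -3.66 to -2.36 with a median of -2.93 on the ptaquiloside arrays, against -2.78 to -1.72 with a median of -2.57 on the others, a difference of -0.49 with an SE of 0.14. P2rx1, an ATP-gated channel known from platelets and neutrophils, differed by -0.71 with an SE of 0.22, at -0.49 without selenium and -0.91 with it. In Padi4 and Fut4 the ptaquiloside median was the lower one and the ranges overlapped. None of Padi4, Fut4 and P2rx1 belongs to the neutrophil list described further on.

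Camk1, a kinase driven by calcium and calmodulin, ran from -1.61 to -0.031 with a median of -0.42 on the ptaquiloside arrays, against -0.80 to 0.21 with a median of -0.073 on the others. It was lower in 8 of 9 pairs, with a difference of -0.45 and an SE of 0.12, and its differences without and with selenium, -0.47 and -0.44, were close to each other. Acvr2b, an activin receptor, differed by -0.59, Slc38a3, a glutamine transporter, by -0.49, Dnmt3l, a partner of DNA methyltransferases, by -0.44, and Palm, a membrane-bound protein, by -0.67. Of these, Acvr2b was well above background on 4 of 9 ptaquiloside arrays and 8 of 10 others, Palm on 4 of 9 ptaquiloside arrays and 10 of 10 others and Slc38a3 on 5 of 9 ptaquiloside arrays and 6 of 10 others. Olfr611, an olfactory receptor gene, was lower in 9 of 9 pairs, with a difference of -0.43 with an SE of 0.13. Unadjusted p for the 10 lower genes lay between 0.000137 for Mmp9 and 0.00577 for Palm. After normexp background correction the differences were smaller, between -0.43 for Mmp9 and -0.18 for Slc38a3. With the dim array of ptaquiloside mouse 4 included, they lay between -0.77 for Mmp9 and -0.11 for Slc38a3. In that setting Olfr611 stood at -0.13 and Dnmt3l at -0.17.

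**Figure D2:**
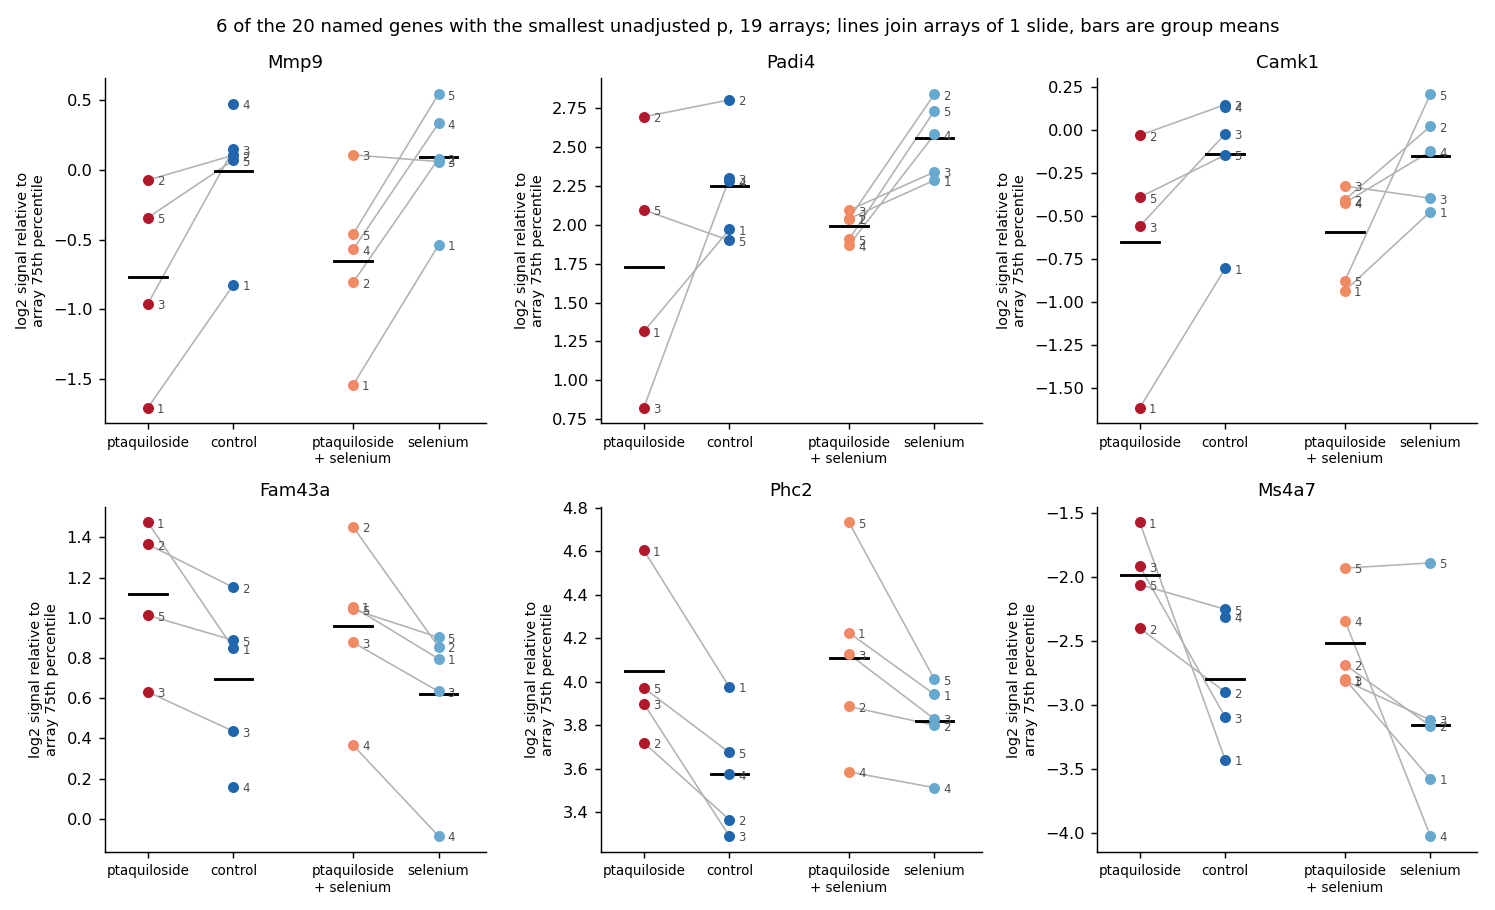
Scaled log2 signal (y axis, relative to each array's 75th percentile) of 6 genes on the 19 arrays by group, with mouse numbers, lines joining arrays of 1 slide and bars for group means. In Mmp9, Padi4 and Camk1 8 of 9 lines run upward to the mice without ptaquiloside, in Fam43a and Phc2 9 of 9 and in Ms4a7 8 of 9 run downward, and the groups overlap in each panel.

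Among the ranked genes higher with ptaquiloside, Fam43a, whose function is little known, had the smallest unadjusted p (probe at chr16:30602449-30602508, mm9). It ran from 0.37 to 1.47 with a median of 1.04 on the ptaquiloside arrays, against -0.086 to 1.15 with a median of 0.82 on the others. Fam43a was higher in 9 of 9 pairs although the ranges overlapped widely. The limma difference was 0.31 with an SE of 0.087 and an unadjusted p of 0.00301. Phc2, a subunit of Polycomb repressive complex 1, ran from 3.59 to 4.73 with a median of 3.97 on the ptaquiloside arrays, against 3.29 to 4.01 with a median of 3.74 on the others. It was higher in 9 of 9 pairs as well, by 0.34 with an SE of 0.11. Ms4a7, a membrane protein known from macrophages, ran from -2.81 to -1.57 with a median of -2.34 on the ptaquiloside arrays, against -4.02 to -1.89 with a median of -3.11 on the others, and differed by 0.71 with an SE of 0.21.

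Gsdme encodes a gasdermin, whose cleaved form opens pores in the membrane of dying cells. Gsdme was at 0.64, 0.18, -0.49 and 1.07 in ptaquiloside mice, against -0.46, -1.28, -1.50, -0.80 and -0.48 in control mice, and there only ptaquiloside mouse 3 overlapped the controls. With selenium it was at 1.17, 0.039, 0.12, 0.59 and 0.46 in mice given both compounds, against 0.23, -0.50, 0.47, -0.028 and 1.34 in selenium mice, and these overlapped. The fitted differences were 1.25 without selenium and 0.18 with it, and Dnah2, an axonemal dynein chain, followed with 1.09 and 0.12. Another Dnah2 probe differed by 0.31 on 19 arrays, where the one given differed by 0.57. The difference between these effects had an unadjusted p of 0.00957 for Gsdme and 0.00201 for Dnah2, with an adjusted p of 0.972 for each by limma.

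Impact, a protein that restrains the amino acid sensor GCN2, differed by 0.50 with an SE of 0.17, and Hdhd5 by 0.32 with an SE of 0.092. Wwc1, a component of the Hippo pathway, was higher in 9 of 9 pairs by 0.50, Cyp2c55, a cytochrome P450, was higher by 0.60 and Snai3, a zinc finger repressor, by 0.79. On the ptaquiloside arrays Wwc1, Cyp2c55 and Snai3 averaged -3.06, -2.85 and -3.49, well under the 75th percentile. Snai3 was well above background on 8 of 9 ptaquiloside arrays and 5 of 10 others, and Cyp2c55 on 9 of 9 ptaquiloside arrays and 7 of 10 others, so their differences rest in part on values that were not. After normexp the differences of Wwc1, Cyp2c55 and Snai3 were -0.073, -0.040 and -0.078, that of Ms4a7 was 0.014 and that of Hdhd5 0.012. Normexp adds an offset of 50 to each signal, which shrinks the differences of dim genes. The median difference of all genes was -0.039 after normexp and 0.0098 in the fit reported. These values are not read as a changed direction, and their cause was not tested. With the dim array of ptaquiloside mouse 4 included, Fam43a stood at 0.15, Hdhd5 at 0.15 and Phc2 at 0.089. Unadjusted p for the 10 higher genes lay between 0.00301 for Fam43a and 0.0118 for Impact, with an adjusted p of 1.00 for each.

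**Figure D3:**
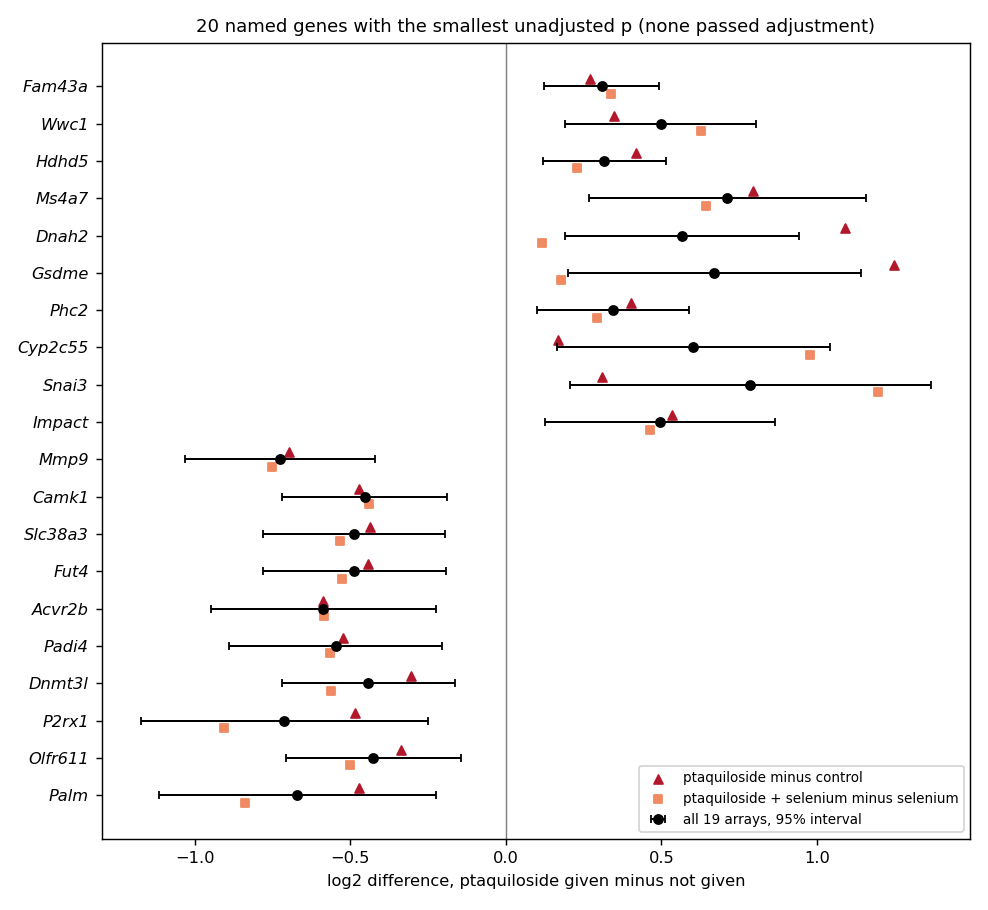
Log2 difference, ptaquiloside given minus not given (x axis), of the 10 higher and 10 lower named genes with the smallest unadjusted p; circles with bars are the limma estimates on 19 arrays with 95% intervals, triangles ptaquiloside minus control, squares ptaquiloside and selenium minus selenium. Triangle and square lie on the same side of 0 for every gene because the naming rule required it, and they lie far apart in Dnah2, Gsdme, Cyp2c55 and Snai3.

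Of 17335 genes measured in all 9 pairs, 16 (0.0923%) were higher in 9 of 9 and 18 (0.104%) were lower in 9 of 9. Genes named from these, beyond those above, were chosen after their values were seen. With random signs, all 9 pairs point the same way with a probability of 0.0039, both directions together. The counts do not exceed this share. Among the higher, 1700106N22Rik was well above background on 5 ptaquiloside arrays and 0 others. It passed the filter on dim probes through the ptaquiloside arrays alone, so its direction is not read. Among the lower, Tmem241 was well above background on only 3 ptaquiloside arrays and 4 others. Xrcc6 and Xrcc5 encode the subunits of Ku, the ring that holds broken DNA ends for joining, and each was lower in 9 of 9 pairs. Xrcc6 ran from -3.02 to -1.11 with a median of -1.77 on the ptaquiloside arrays, against -2.33 to -1.06 with a median of -1.70 on the others. Xrcc5 ran from -0.21 to 0.68 with a median of 0.25 on the ptaquiloside arrays, against -0.20 to 0.93 with a median of 0.50 on the others. The ranges overlapped almost wholly, and the pair differences ran from -0.69 to -0.042 for Xrcc6 and from -0.35 to -0.0086 for Xrcc5. In limma Xrcc6 differed by -0.33 with an SE of 0.16 (unadjusted p = 0.0508) and Xrcc5 by -0.19 with an SE of 0.11 (unadjusted p = 0.0911).

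Also lower in 9 of 9 pairs were Ckap2l, a mitotic spindle protein, at -0.43, Mthfd1, an enzyme of folate metabolism, at -0.36, Tfr2, a transferrin receptor, at -0.47, and Retsat, a retinol saturase, at -0.25. Higher in 9 of 9 pairs were Rassf1, a tumour suppressor of the Ras pathway, by 0.18, Cpeb2, a regulator of polyadenylation and translation, by 0.30, Cwc22, a splicing factor, by 0.18, and Cmtm6, which keeps PD-L1 on the cell surface, by 0.16. Selenos, a selenoprotein of the endoplasmic reticulum, was higher in 9 of 9 pairs too. It ran from 3.11 to 3.71 with a median of 3.23 on the ptaquiloside arrays, against 2.88 to 3.39 with a median of 3.09 on the others, a difference of 0.18 with an SE of 0.088 and an unadjusted p of 0.0566. With the dim array of ptaquiloside mouse 4 included, Selenos stood at -0.12, Rassf1 at -0.063 and Cmtm6 at -0.14, and after normexp Cpeb2 stood at -0.040.

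In 4 genes the fitted difference exceeded a factor of 2, and each was not well above background on several arrays. Esm1, an endothelial proteoglycan, was well above background on 5 of 9 ptaquiloside arrays and 0 of 10 others. It passed the filter on dim probes through the ptaquiloside arrays alone, so no fitted size or p is given, and after normexp its difference was -0.023. Amy2a5, a pancreatic amylase, was fitted at 1.07 with an SE of 0.84 and was well above background on 4 of 9 ptaquiloside arrays and 5 of 10 others, and it stood at -0.038 after normexp. The transcript NAP020114-001 was fitted at -1.11 with an SE of 0.53. It was well above background on 6 of 9 ptaquiloside arrays and 9 of 10 others. The transcript D530039A21Rik was fitted lower with ptaquiloside and was well above background on 3 of 9 ptaquiloside arrays and 6 of 10 others. It passed the filter on dim probes only through the arrays without ptaquiloside, so no fitted size is given.

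The 31 gene lists are described by their counts and medians beside the shares of all genes, 53.1% higher and 46.9% lower. At an unadjusted p under 0.05 these shares were 0.836% higher and 1.28% lower. Members of a list can vary together, so its counts are not counts of independent genes. Over the 519 distinct genes of the lists 0 were called, while 4 were higher and 12 lower at an unadjusted p under 0.05. The medians lay between -0.35 and 0.27, and in 18 of the 31 lists the median had opposite signs without and with selenium. The range in brackets after a list's median is that over the 31 alternatives, which leave out single arrays, include the dim array or change the processing.

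**Figure D4:**
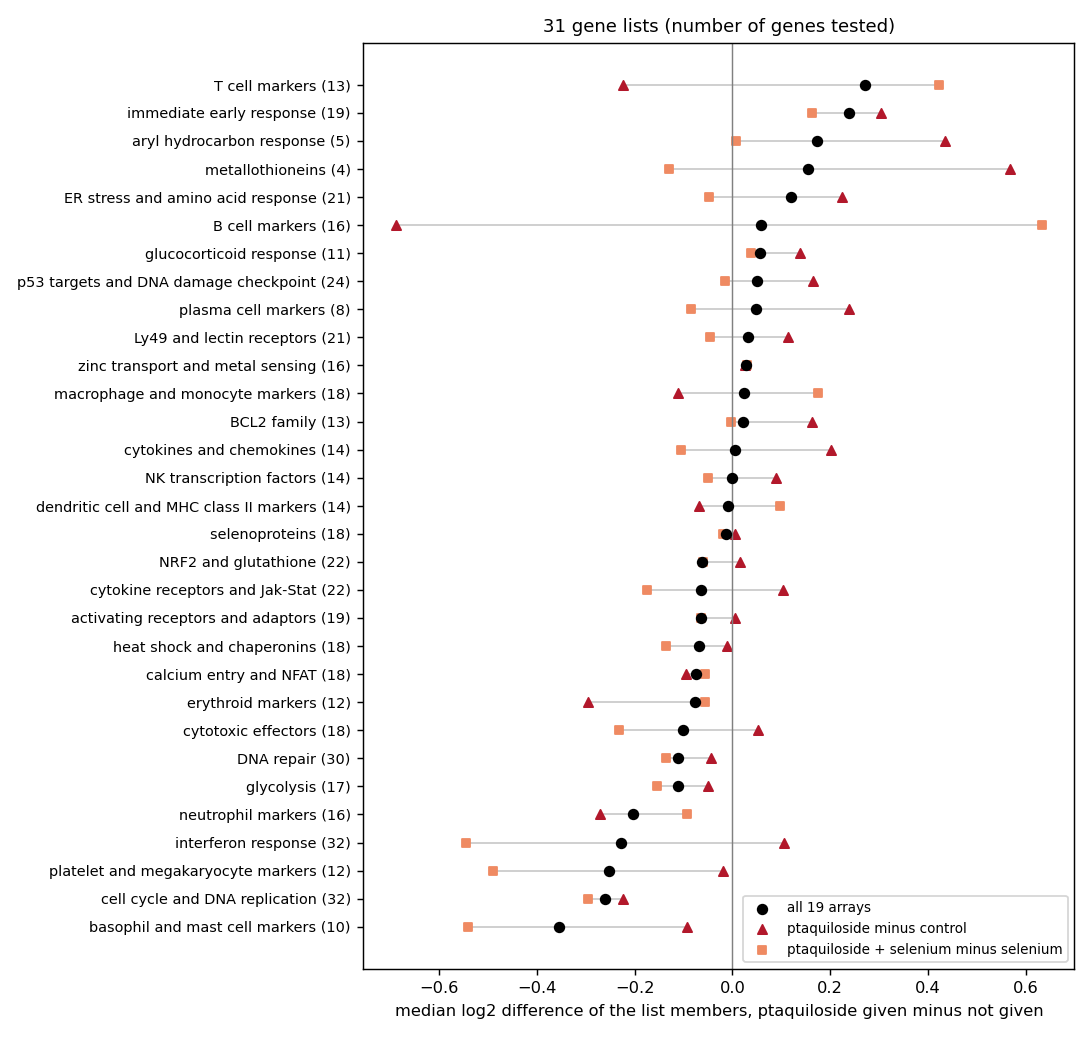
Median log2 difference of the members of 31 gene lists, ptaquiloside given minus not given (x axis), with the number of genes tested in brackets; circles use all 19 arrays, triangles are ptaquiloside minus control, squares ptaquiloside and selenium minus selenium. The circles lie between -0.35 and 0.27, and triangle and square lie far apart for the B cell, metallothionein, interferon and T cell lists.

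Genes of the cell cycle and DNA replication were lower with ptaquiloside in 32 of 32, where 46.9% of all genes were, with a median of -0.26 (-0.39 to -0.16), at -0.22 without selenium and -0.30 with it. In 3 of 32 (9.38%) the unadjusted p was under 0.05, beside 1.28% of all genes. Cdc6, which loads the replicative helicase, ran from -2.91 to -1.19 with a median of -2.22 on the ptaquiloside arrays, against -2.78 to -0.84 with a median of -1.66 on the others, and differed by -0.52 with an SE of 0.20. Ccnb2, a mitotic cyclin, ran from 0.34 to 2.55 with a median of 1.37 on the ptaquiloside arrays, against 0.48 to 3.102 with a median of 1.98 on the others, and differed by -0.48 with an SE of 0.21. Mcm3, a subunit of that helicase, differed by -0.31 with an SE of 0.15, and Ccna2, the cyclin of S phase, by -0.49 with an SE of 0.23.

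Averaged over the list, with each gene centred over the 19 arrays, the cell cycle genes were at -0.27, 0.051, -0.46 and -0.71 in ptaquiloside mice 1, 2, 3 and 5, against -0.0089, 0.50, -0.34, -0.72 and -0.43 in control mice 1 to 5. With selenium they were at 0.67, 0.024, -0.12, -0.10 and -0.084 in mice given both compounds, against 0.58, 0.84, 0.75, 0.52 and -0.70 in selenium mice. Without selenium the 4 pairs were all lower with ptaquiloside, while with selenium slides 1 and 5 ran the other way. Gene by gene, 6 of 32 stood above 0 without selenium. Genes of this list are transcribed together in dividing cells, so their count is not one of independent genes.

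Genes of DNA repair were lower in 23 of 30, with a median of -0.11 (-0.048 without mouse 5 given both compounds, and also moved by more than 1.5 times without control mouse 5), and Xrcc5 and Xrcc6 are among them. Lig3, a ligase of base excision repair, differed by -0.25 with an SE of 0.11 (unadjusted p = 0.0420). Xpa, a factor of nucleotide excision repair, differed by 0.20 with an SE of 0.093, and by -0.031 with the dim array included. Targets of p53 and checkpoint genes were higher in 14 of 24, with a median of 0.051 (-0.14 to 0.082). Plk2, a kinase induced by p53, differed by 0.46 with an SE of 0.25, and Bbc3, the death factor Puma, by 0.26 with an SE of 0.14. The BCL2 family had a median of 0.021 (-0.037 to 0.090) with 8 of 13 higher, Bmf, a death-promoting member, standing at 0.32, with its other probes at -0.0033 and 0.20.

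Among genes of chemical stress, the list of the aryl hydrocarbon receptor held 9 genes, of which 5 were tested. It had 3 of 5 higher and a median of 0.17, or -0.057 with the dim array and -0.0011 after normexp. Leaving out single arrays gave 0.088 to 0.23, with the values without ptaquiloside mouse 1 and without mouse 5 given both compounds at the low end. Ahrr, the repressor that this receptor induces, was at -1.43, -2.72, -3.90 and -1.59 in ptaquiloside mice 1, 2, 3 and 5, against -3.68, -5.30, -4.51, -3.83 and -3.82 in control mice 1 to 5. With selenium it was at -1.72, -2.68, -3.46, -2.30 and -1.78 in mice given both compounds, against -2.55, -3.16, -2.32, -3.30 and -1.07 in selenium mice. Control mice had the low values, and 3 of the 4 ptaquiloside arrays lay above each of them, while with selenium the groups overlapped. Ahrr was well above background on 8 of 9 ptaquiloside arrays and 8 of 10 others, and control mice 2 and 3 lay below their arrays' lowest signal well above background, so the difference from controls has no exact size. The fitted difference of Ahrr on 19 arrays was 0.88 with an SE of 0.33 (unadjusted p = 0.0186), at 1.79 without selenium and 0.091 with it, and it was -0.0011 after normexp. Tiparp, another target of the receptor, stood at 0.93 without selenium and -0.26 with it. Ahr itself differed by -0.12, and its partner Arnt by 0.17, or -0.057 with the dim array included.

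Genes of the NRF2 and glutathione defence were higher in 9 of 22, with a median of -0.061 (-0.23 to 0.036). Slc7a11, the cystine importer, differed by 0.59 with an SE of 0.32 by its brightest probe, while its other probes differed by 0.16, 0.017 and 0.085. By the brightest probe mouse 5 given both compounds stood at 2.95 while the other mice of its group reached at most 0.48. Gclm, a subunit of the enzyme that starts glutathione synthesis, differed by -0.39 with an SE of 0.20. Selenoprotein genes were higher in 6 of 18, with a median of -0.013 (-0.14 to 0.041), and Gpx1, a glutathione peroxidase, differed by -0.22 with an SE of 0.12. Genes of zinc transport and metal sensing were higher in 9 of 16, with a median of 0.027 (-0.12 to 0.062), among them Slc39a3, a zinc importer, at -0.15 and Slc30a4, a zinc exporter, at 0.21, or -0.029 after normexp.

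Heat shock proteins and chaperonins were lower in 15 of 18, with a median of -0.068 (-0.25 to 0.033). Tcp1, a chaperonin subunit, differed by -0.20 with an SE of 0.092 (unadjusted p = 0.0447), although another of its probes pointed the other way, and Hspa8, a constitutive chaperone, by -0.16. Genes of the endoplasmic reticulum stress and amino acid response were higher in 15 of 21, with a median of 0.12, or -0.15 with the dim array and 0.047 without ptaquiloside mouse 3. It also moved by more than 1.5 times without ptaquiloside mouse 1 or selenium mouse 1. Dnajb9, a chaperone of that compartment, differed by 0.23, or -0.25 with the dim array. Glycolysis genes were lower in 13 of 17, with a median of -0.11 (-0.14 to -0.0074), among them Hk1, a hexokinase, at -0.23.

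Immediate early genes, which respond within minutes to stimulation or handling, were higher in 17 of 19, with a median of 0.24, where 53.1% of all genes were higher. The medians were 0.30 without selenium and 0.16 with it, and the list's median was higher in 8 of 9 pairs. In 1 of 19 (5.26%) the unadjusted p was under 0.05, beside 0.836% of all genes. That gene, Ier2, ran from 4.88 to 5.71 with a median of 5.60 on the ptaquiloside arrays, against 4.59 to 5.77 with a median of 5.19 on the others, a difference of 0.26 with an SE of 0.11, and its other probe differed by 0.073. Klf6 and Klf2, which are Krueppel-like factors, differed by 0.30 and 0.38, with another Klf2 probe at -0.19, and Fos, a part of AP-1, by 0.35 with an SE of 0.18. With the dim array of ptaquiloside mouse 4 included, the list's median was -0.050, Ier2 stood at -0.10 and Fos at -0.21. Without ptaquiloside mouse 3 the median was 0.16. Glucocorticoid-induced genes were higher in 8 of 11, with a median of 0.057 (-0.25 to 0.13), and Tsc22d3, known as Gilz, differed by 0.39 with an SE of 0.21, or -0.17 with the dim array.

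Interferon-induced genes were lower in 31 of 32, where 46.9% of all genes were, with a median of -0.23, and the settings parted. Without selenium the median was 0.11 and 22 of 32 were higher, whereas with selenium it was -0.55 and 0 of 32 were higher. Oasl2, an antiviral protein of the oligoadenylate synthetase family, was at 0.59, 0.77, -0.68 and -0.14 in ptaquiloside mice, against -0.27, 0.29, 0.86, 0.59 and -0.017 in control mice. With selenium it was at -0.24, 0.56, 0.30, 0.0023 and -0.32 in mice given both compounds, against -0.083, 1.78, 1.59, 2.52 and 0.50 in selenium mice. Selenium mice 2, 3 and 4 thus stood above all other arrays. Oasl2 differed by -0.66 with an SE of 0.29 on 19 arrays, by -0.032 without selenium and by -1.20 with it. The difference between these had an unadjusted p of 0.0400 and an adjusted p of 0.972 by limma. Oas3, Oas1a and Cmpk2 differed by -0.53, -0.39 and -0.39 on 19 arrays. With array 4 of the ptaquiloside and selenium group left out, the list's median was -0.13.

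**Figure D5:**
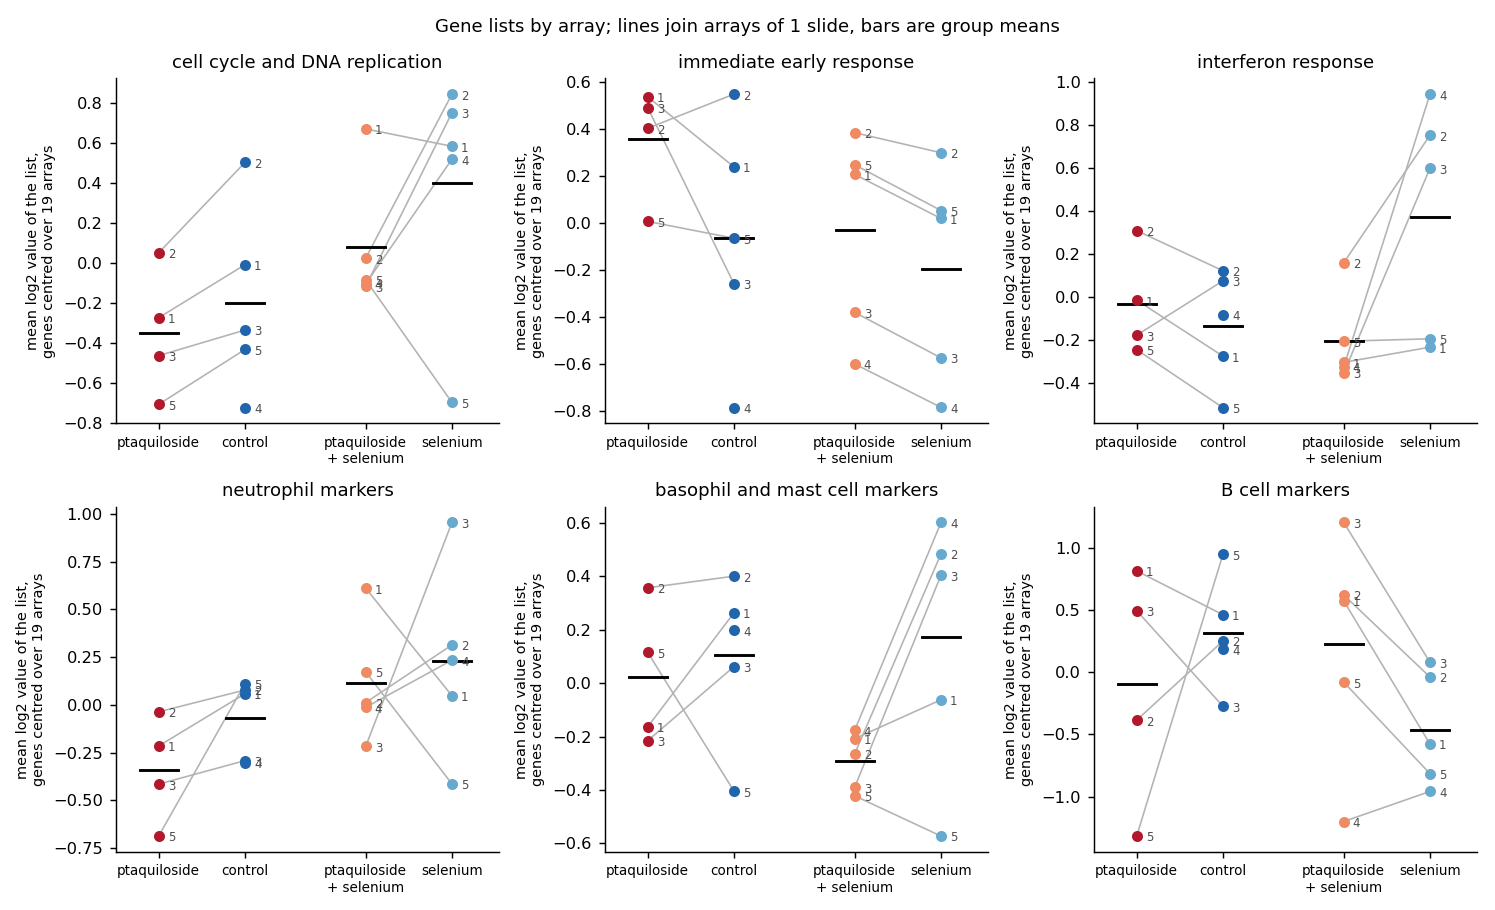
Mean log2 value of 6 gene lists on the 19 arrays (y axis, each gene centred over the arrays) by group, with mouse numbers, lines joining arrays of 1 slide and bars for group means. Selenium mice 2, 3 and 4 are the highest arrays in the interferon and basophil panels, and in the immediate early panel 8 of 9 lines run downward to the mice without ptaquiloside.

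Cytotoxic effectors were lower in 15 of 18, with a median of -0.10, at 0.052 without selenium and -0.23 with it. Leaving out single arrays gave -0.18 to -0.030, the low end without ptaquiloside mouse 5 and the high end without mouse 5 given both compounds. Gzmb, a granzyme that triggers death of target cells, differed by -0.19 with an SE of 0.18, at 0.16 without selenium and -0.55 with it. It has no value for mouse 2 in either group given selenium, and without mouse 5 given both compounds its difference was -0.054. Gzmc, another granzyme, differed by -0.14, and Unc13d and Stxbp2, which act in granule release, by -0.11 and -0.17. Activating receptors and adaptors were higher in 8 of 19, with a median of -0.064 (-0.23 to 0.033). Among them Crtam, an adhesion receptor of activated lymphocytes, stood at 0.20 without selenium and -0.71 with it (unadjusted p of the difference 0.00240, adjusted p 0.972 by limma). Ly49 and lectin receptors were higher in 12 of 21, with a median of 0.033 (-0.15 to 0.080). Klra6 and Klra8, genes of Ly49 receptors, stood at 0.14 and 0.11, or -0.084 and -0.22 with the dim array.

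NK transcription factors were higher in 7 of 14, with a median of -0.00036 (-0.10 to 0.083), and Tbx21, the factor T-bet, stood at 0.093. Cytokines and chemokines were higher in 8 of 14, with a median of 0.0045 (-0.048 to 0.066). Tnf differed by 0.44 with an SE of 0.32, and ptaquiloside mouse 3 stood at 6.08 in a group otherwise reaching 3.91. Csf2, the growth factor GM-CSF, differed by -0.29. Cytokine receptors and Jak-Stat genes were higher in 9 of 22, with a median of -0.064 (-0.16 to 0.011), Il2ra, the high-affinity chain of the interleukin 2 receptor, standing at -0.21. Genes of calcium entry and NFAT were higher in 6 of 18, with a median of -0.075 (-0.14 to 0.0083), Stim1, the calcium sensor, standing at -0.16.

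Basophil and mast cell markers were lower in 8 of 10, where 46.9% of all genes were. Their median was -0.35 (-0.46 to -0.20), at -0.093 without selenium and -0.54 with it. In 3 of 10 (30%) the unadjusted p was under 0.05, beside 1.28% of all genes. These were Cd200r3, an activating receptor, at -0.43 with an SE of 0.15, Fcer1a, a chain of the IgE receptor, at -0.38 with an SE of 0.17, and Prss34, a basophil protease, at -0.54 with an SE of 0.25. Cd200r3 ran from -1.62 to -0.53 with a median of -1.17 on the ptaquiloside arrays, against -1.12 to -0.12 with a median of -0.49 on the others, an overlap. The summed signal of the list, in multiples of each array's 75th percentile, was 23.1 to 37.5 with ptaquiloside and 24 to 43.1 without.

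Neutrophil markers were lower in 13 of 16, where 46.9% of all genes were, with a median of -0.20. In 2 of 16 (12.5%), Mmp9 and Retnlg, the unadjusted p was under 0.05, beside 1.28% of all genes. Retnlg, a secreted resistin-like protein, ran from 3.45 to 5.72 with a median of 4.85 on the ptaquiloside arrays, against 4.57 to 5.88 with a median of 5.35 on the others, and differed by -0.63 with an SE of 0.22. Elane and Mpo, granule enzymes of neutrophil precursors, differed by -0.43 with an SE of 0.26 and -0.41 with an SE of 0.25. The summed signal of the list was 309 to 883 with ptaquiloside and 372 to 1068 without, and its part in the Mmp9 and Padi4 differences was not tested. Without selenium mouse 3, the highest array at 0.95 on the scale of list averages, the list's median was -0.020, and without selenium mouse 5 it was -0.33. Leaving out control mouse 5, ptaquiloside mouse 5, selenium mouse 1 or mouse 1 or 3 given both compounds also moved it by more than 1.5 times, within that range.

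Platelet and megakaryocyte markers were lower in 12 of 12, where 46.9% of all genes were. Their median was -0.25 (-0.33 to -0.14), at -0.019 without selenium and -0.49 with it. Gp1ba, a receptor for von Willebrand factor, differed by -0.36 with an SE of 0.17. The summed signal of the list was 35.2 to 75.7 with ptaquiloside and 44.0 to 86.6 without. Erythroid markers were lower in 7 of 12, with a median of -0.077 (-0.20 to -0.031), Klf1, the erythroid factor, standing at -0.72 with an SE of 0.38 and Car1, a carbonic anhydrase, at -0.58 with an SE of 0.31. The other 5 of 12 were higher, by up to 0.58. Klf1 was well above background on 15 of 19 arrays, and its difference was -0.23 after normexp. Its values in ptaquiloside mice 3 and 5 and mouse 5 given both compounds lay below their arrays' lowest signal well above background. The Klf1 difference thus has no exact size.

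Markers of B cells were higher in 13 of 16, with a median of 0.059, at -0.69 without selenium and 0.63 with it. Single arrays stood out, ptaquiloside mouse 5 at -1.32 and mouse 3 given both compounds at 1.21 on the scale of list averages, and the summed signal was 25.3 to 131 with ptaquiloside and 32.7 to 106 without. Without ptaquiloside mouse 5 the list's median was 0.32, and without selenium mouse 1 it was -0.043, with most other single arrays moving it within that range. Pax5, the B cell factor, differed by 0.52 with an SE of 0.20 (unadjusted p = 0.0209), or -0.083 after normexp. It was well above background on 12 of 19 arrays. Selenium mice 1, 2, 4 and 5, control mouse 2 and mouse 4 given both compounds lay below their arrays' lowest signal well above background. The Pax5 difference thus has no exact size. T cell markers were higher in 11 of 13, with a median of 0.27 (0.050 to 0.36), at -0.22 without selenium and 0.42 with it, and without mouse 3 given both compounds the median was 0.050. Mouse 2 given both, ptaquiloside mouse 1, selenium mice 1 and 3 and control mouse 3 each lowered it by more than 1.5 times as well when left out. Cd28, a costimulatory receptor, differed by 0.27, or 0.090 by another probe, and the summed signal of the list was 7.55 to 28.6 with ptaquiloside and 8.12 to 20.7 without.

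Macrophage and monocyte markers were higher in 10 of 18, with a median of 0.023 (-0.019 to 0.13), Spic, a factor of red pulp macrophages, standing at 0.47 with an SE of 0.18 (unadjusted p = 0.0225). Dendritic cell and MHC class II markers had a median of -0.0084 (-0.12 to 0.043), with H2-Eb1, an MHC class II chain, at 0.22, or -0.10 with the dim array. Plasma cell markers had a median of 0.048 (-0.070 to 0.15), with Mzb1, a chaperone of antibody-producing cells, at 0.20. The part of these cells in the differences of other genes was not tested.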

How the data were processed

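Members and gene lists were chosen with earlier results of these data known. The 20 deposited scanner files hold spot intensity, made with Agilent Feature Extraction 9.5.3.1 per the submitters' processing notes; per the file headers, the processed intensity is background-subtracted and detrended within an array, not scaled between arrays. Columns of another kind hold flags and spot types, per the file headers. Deposited log2 values of the whole series were not used, because their header states that the authors replaced 2 arrays by means of other mice.

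Control and outlier spots were left out, log2 processed signals were taken relative to each array's 75th percentile, and spots of 1 probe were averaged. Of 41174 probes 25028 were well above background on 5 or more of 20 arrays. The brightest such probe per gene gave 17468 genes, 17335 of them measured on all 19 arrays (273 missing values were dropped by the fit). RefSeq accessions named 25097 probes, and 16077 kept the file's name. Probe positions are those of the files (mm9), without exon annotation.

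Limma 3.58.1 (R 4.3.3, statmod 1.5.0) fitted ptaquiloside, selenium and replicate number with 12 residual degrees of freedom, and 1 mean per group with replicate number for the effects without and with selenium and their difference. P-values were two-sided and Benjamini-Hochberg adjusted over all genes, with a threshold of 0.05. The number of arrays limits the precision. Each array was a different mouse.

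The replicate number is the slide number, a batch shared over groups. Deviations from group means correlated at -0.342 to 0.711 between arrays of the same number (median 0.432, 24 of 27 over 0.1) and at a median of -0.147 between other numbers.

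Named by rule were Mt1, Mt2, the 10 higher and 10 lower symbols with the smallest p among genes with 1 sign in both settings and well above background on at least 10 of 19 arrays, and the list members with the smallest p, 97 genes in all. Up to 4 members came from each of the metallothionein, aryl hydrocarbon, cell cycle, interferon, immediate early, cytotoxic, neutrophil, basophil and platelet lists. Up to 2 came from each other list. The other 24 of the 121 named genes were chosen after their values were seen. Some items are not reported here. Of the 121, 37 had several probes, and in 6 (Arnt, Tcp1, Klf2, Bmf, Slc2a3 and Ikzf3) a probe pointed the other way; values of other probes come from a fit over all probes. Alternatives covered the replicate block, each array left out, all 20 arrays, background correction, scaling, filters, probes, variance settings, the selenium term and the methods' t-test. The normexp background correction added an offset of 50 to each signal, which shrinks the differences of dim genes.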

Additional observations from a re-analysis of the deposited data

Results flagged for a closer look

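On the array of ptaquiloside mouse 4, which the comparison leaves out, 36.3% of spots were well above background, while the other arrays of mice given ptaquiloside alone started at 55.4%. Among the named genes, 27 of 484 combinations of gene and group (5.58%) held 1 array far from the rest of its group, where chance gives about 1 in 20. Of these 7 fell on the array of mouse 5 given both compounds, whose 75th percentile of 45.5 was the lowest of the 19, and 5 on the array of ptaquiloside mouse 1.

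In mouse 5 given both compounds, Wwc1 was highest of its group at -1.87, Arnt at 0.55, Slc7a11 at 2.95 and Selenos at 3.71, while Hspa8 was lowest at 5.66, Hk1 at 2.83 and Stxbp2 at -0.53. Mouse 1 given both was highest in Cdc6 at -1.19, and mouse 3 given both was lowest in Acvr2b at -4.98. Ptaquiloside mouse 1 was highest in Bmf at 3.51 and Cmtm6 at 4.08 and lowest in Ahr at 1.61, Slc2a3 at 1.83 and Cd200r3 at -1.44. Ptaquiloside mouse 3 was highest in Tnf at 6.08 and Cd28 at -0.039.

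Without ptaquiloside, selenium mouse 5 was lowest in Cdc6 at -2.71 and Ckap2l at -2.48 and highest in Fcgr3 at 5.49. Selenium mouse 4 was lowest in Fam43a at -0.086, and selenium mouse 3 in Per1 at 3.66. Control mouse 2 was lowest in Snai3 at -5.05 and Slc30a4 at -2.56 and highest in Mt3 at 1.14. Control mouse 1 was lowest in Ahr at 2.12 and Wdr6 at -0.76, and control mouse 3 in Taz at 1.65.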

How the results depend on the processing

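The count of genes called for ptaquiloside was 0 in each of 31 alternatives, 19 of which left out 1 array, so these left-out counts ranged from 0 to 0, as did those for the effects without and with selenium; for the difference between these effects they ranged from 0 to 1. Genes at an unadjusted p under 0.05, 369 in the fit reported, numbered 175 without the replicate block, 241 with all 20 arrays and 152 by the methods' t-test (0 called), and between 225 (without mouse 2 given both compounds) and 804 (without ptaquiloside mouse 5) with arrays left out. They were 788 without selenium mouse 5 and 642 without mouse 5 given both. Without the replicate block there were 262 such genes without selenium, 295 with selenium and 396 for the difference between these effects.

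Of 121 named genes 89 kept their direction in each alternative, and 2 turned when 1 array was left out. Mt1 ranged from -0.026 to 0.34 and Mt2 from -0.043 to 0.31 over the left-out arrays, both lowest without ptaquiloside mouse 3. Leaving out each slide in turn, the mean pair difference of Mt1 ranged from -0.085 (without replicate 3) to 0.38, and that of Mt2 from -0.10 (without replicate 3) to 0.32, at -0.021 without replicate 5. With all 20 arrays 19 turned, Arnt to -0.057, Selenos to -0.12, Xpa to -0.031, Pdia6 to -0.15, Dnajb9 to -0.25, Ier2 to -0.10, Fos to -0.21, Tsc22d3 to -0.17, Per1 to -0.25, Klra6 to -0.084, Klra8 to -0.22, Il10ra to -0.18, H2-Eb1 to -0.10, H2-Ab1 to -0.16, Irf4 to -0.045, Rassf1 to -0.063, Taz to -0.063, Cmtm6 to -0.14 and Wbp4 to -0.078. After normexp 11 turned, Wwc1 to -0.073, Cyp2c55 to -0.040, Snai3 to -0.078, Mt4 to -0.035, Slc30a4 to -0.029, Ahrr to -0.0011, Pax5 to -0.083, Cd79a to -0.040, Cpeb2 to -0.040, Amy2a5 to -0.038 and Esm1 to -0.023. Normexp added an offset of 50 to each signal. This shrinks the differences of dim genes, and the median difference of all genes was -0.039 after normexp. The signs after normexp are not read as reversals. The causes were not tested. Low signal over background limits genes such as Esm1, well above background on 5 of 9 ptaquiloside arrays and 0 of 10 others.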
